A study of Mus musculus with 2 samples.

Results

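Vpreb1, Igll1, Rag1, Rag2, Dntt, Sox4, Myb, Ebf1 and Pax5 are 9 genes of early B cell development, and they are described here in immune cells of mouse visceral adipose tissue (VAT). They were chosen by name, from a list drawn up with measured values of these data in view, and are 9 of the 26981 genes counted in either library. Each was followed in every cell that had at least 500 gene UMIs (unique molecular identifiers, each standing for 1 captured RNA molecule), at least 200 genes and at most 25% mitochondrial UMIs. All 9 were detected in both libraries.

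Single-cell RNA-seq was performed on CD45+ cells, enriched on magnetic beads from the VAT of 15-week-old wild-type C57BL/6 mice. NW mice received normal drinking water, and ABX mice received ampicillin, streptomycin, colistin and vancomycin in the water. Each condition was 1 library, with no replicate and with the number of mice in it not stated in the sources used here. All intervals below are therefore 95% intervals of counting error within these libraries, no p-value is given, and condition and library cannot be told apart.

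B cells are made from committed progenitors in the bone marrow. Ebf1 and Pax5 are transcription factors that set and hold B lineage identity, while Myb and Sox4 are transcription factors of lymphoid progenitors that pro-B cells need. Rag1 and Rag2 form the recombinase that cuts the immunoglobulin genes, and Dntt (terminal deoxynucleotidyl transferase) adds untemplated nucleotides at the joins, chiefly at the heavy chain. Vpreb1 and Igll1 (lambda 5) form the surrogate light chain, which pairs with a new heavy chain in the pre-B cell receptor before the light chain is rearranged. In mature B cells Ebf1 and Pax5 stay on and the other genes are largely off, and plasma cells lose Ebf1 and Pax5 as well.

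The genes of each working pair are neighbours in the mouse genome. In GRCm38, Vpreb1 lies at chr16:16868403-16870843 and Igll1 at chr16:16860671-16863985, both on the minus strand with 4417 bases between them. Rag1 lies at chr2:101638282-101649501 on the minus strand and Rag2 at chr2:101624718-101632529 on the plus strand, with 5752 bases between them. Dntt is at chr19:41029275-41059525 (plus), Sox4 at chr13:28948919-28953713 (minus), Myb at chr10:21124935-21160984 (minus), Ebf1 at chr11:44617317-45008091 (plus) and Pax5 at chr4:44524757-44710487 (minus). The Vpreb1-201 transcript is 97.4% identical to Vpreb2-201 over 759 bases, so reads could be split between them. Vpreb2 had 23 UMIs in NW and 10 in ABX B precursor-like cells. Exons of Top3b overlap those of Vpreb1 on the other strand, and B230118H07Rik spans Rag1 and Rag2.

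The promoters of Vpreb1, Igll1 and Rag1 are shown because these genes were counted together in the same cells and are the ones among the 9 whose upstream window held an E box of the sequence CAGGTG, a kind of site bound by Tcf3 (E2A). Each sequence is the 250 bases before the RefSeq start in GRCm38.p6, 5′ to 3′ on the strand of the gene, with the E box in capitals (CACCTG where it is on the other strand).

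Vpreb1: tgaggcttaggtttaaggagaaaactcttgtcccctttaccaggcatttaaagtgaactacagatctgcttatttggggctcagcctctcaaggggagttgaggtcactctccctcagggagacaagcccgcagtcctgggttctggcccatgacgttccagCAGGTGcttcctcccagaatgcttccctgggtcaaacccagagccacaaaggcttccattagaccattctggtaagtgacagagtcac
Igll1: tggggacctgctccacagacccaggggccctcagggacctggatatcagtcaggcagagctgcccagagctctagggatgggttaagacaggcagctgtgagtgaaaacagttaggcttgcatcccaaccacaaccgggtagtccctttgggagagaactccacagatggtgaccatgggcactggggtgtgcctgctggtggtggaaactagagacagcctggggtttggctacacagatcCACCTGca
Rag1: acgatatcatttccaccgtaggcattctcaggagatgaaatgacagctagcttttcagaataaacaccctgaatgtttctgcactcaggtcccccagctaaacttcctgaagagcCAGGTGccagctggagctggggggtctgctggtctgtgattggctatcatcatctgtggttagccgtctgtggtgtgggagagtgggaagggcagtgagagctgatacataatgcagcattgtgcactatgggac

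The Vpreb1 window is chr16:16869256-16869505 (minus), and its E box begins 88 bases before the start. Part of that window lies in an exon of a noncoding Vpreb1 transcript. The Igll1 window is chr16:16863986-16864235 (minus), with the match 8 bases before the start. The Rag1 window is chr2:101649533-101649782 (minus), with the match 135 bases before the start. On either strand the letters CAGGTG were in the window of 3 of the 9 genes, and in 17.2% of 32851 RefSeq promoter windows of the same length. The palindrome bound by Ebf1, TCCC and GGGA with 2 bases between them, was in none of the 9 and in 0.779% of all windows. A match is a description of the letters and not of binding.

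The files held 12474 NW and 12724 ABX cells after filtering, with medians of 5092 and 3845.5 UMIs. Of these barcodes 196 were in both libraries, 1 of them in a B precursor-like NW cell. Clusters were made without the 9 genes among the variable genes, and a cluster was called "X-like" from other markers, by limits set after the clusters were seen. The B precursor-like cluster had all 11 of its markers above the other cells, among them Vpreb3, Cd93, Il7r and Bst1. Of the 9 genes, Vpreb1, Myb, Igll1, Sox4, Rag1 and Dntt were among the 10 genes that led it by fold. After the cells described next were left out, 6 of the 8 mature B markers were detected in it in NW (386 CPM, counts per 1000000 UMIs, summed over the list) and 5 of 8 in ABX (472 CPM), against 4849 and 5215 CPM in mature B-like cells. Cr2 and Fcer2a were at 0 in both libraries and Bhlhe41 in ABX, while Ighd had 51 and 28 UMIs and Ms4a1 41 and 2. All 7 genes of bone marrow granulocyte precursors were at 0. Haemoglobin and other erythroid genes gave 1 UMI in NW and none in ABX.

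The cluster held 89 cells, 56 from NW and 33 from ABX, and 14 of these (4 NW, 10 ABX) went against its name, 1 of them only in part. Each of the 14 had at least 20 UMIs of Cd74, the invariant chain of MHC class II, which is low in early B cell precursors. Ms4a1 (CD20), a gene of mature B cells, was detected in 13 of them, and their median depth was 13368 UMIs. Igkc, the kappa light chain constant gene, was at 41256 CPM in them, but 3 of the cells held 7231 of its 7827 UMIs, and the other 11 cells were at 5011 CPM. Of the 14, 1 had a UMI of Vpreb1 or Igll1, 1 of Rag1 or Rag2, and none of Dntt, while 11 had Ebf1 or Pax5. The cell with Vpreb1 and that with Rag1 and Rag2 were the same NW cell, which also held 25 UMIs of Sox4 and 20 of Ebf1. The limit on Cd74 was chosen after these values were seen, and folds and ratios that rest on the cluster are given with and without the 14 cells. Combinations and the spread between cells are described without them.

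Most UMIs of the surrogate light chain genes were in the B precursor-like cells. Of the UMIs of Vpreb1, 75.2% in NW and 75.0% in ABX came from this cluster, which was 0.449% and 0.259% of the cells. For Igll1 the percentages were 85.6% and 86.0%. Vpreb1 gave 303 UMIs in 28 of 56 NW cells (634 CPM, 565 to 710) and 96 UMIs in 11 of 33 ABX cells (364 CPM, 295 to 445). Mature B-like cells gave 1 Vpreb1 UMI in 311 NW cells and 5 UMIs in 849 ABX cells. Thus the level in precursors was 912-fold higher in NW (162 to 36128, from 1 UMI in the lower group) and 274-fold higher in ABX (113 to 862). These folds were 1023 and 567 without the Cd74-high cells. Igll1 gave 238 UMIs in NW precursors (498 CPM, 437 to 566) and 80 in ABX precursors (303 CPM, 241 to 378). Mature B-like cells held 1 Igll1 UMI in NW and none in ABX, which made the level in ABX precursors at least 380-fold higher, taking 3 counts as the floor for a count of 0, and at least 788-fold without the Cd74-high cells.

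The recombinase genes and Dntt followed the same distribution. Rag1 gave 214 UMIs in 34 NW precursors (448 CPM, 390 to 512) and 83 in 14 ABX precursors (315 CPM, 251 to 390). Rag2 gave 67 UMIs in 23 NW cells and 15 in 7 ABX cells, and Dntt 146 UMIs in 13 NW cells and 38 in 4 ABX cells. None of these 3 genes had a single UMI in the 311 NW or the 849 ABX mature B-like cells, which allows a share of cells with a UMI of up to 0.965% and 0.353%. Against that floor Rag1 was at least 215-fold higher in precursors than in mature B-like cells in NW, and at least 394-fold in ABX (at least 240-fold and 818-fold without the Cd74-high cells). Plasma cell-like cells held no Rag1 or Dntt UMI and 1 Rag2 UMI in each library. Outside the B lineage Dntt was also found in plasmacytoid dendritic cell (pDC)-like cells, with 28 UMIs in 5 of 36 NW cells and 6 UMIs in 2 of 12 ABX cells. Its level there was 98.5 and 70.4 CPM, and these cells had no UMI of Vpreb1, Igll1, Rag1 or Rag2.

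Ebf1 and Pax5 were shared by precursors and mature B cells. Pax5 was at 567 CPM (502 to 639) in NW precursors and 502 CPM (466 to 540) in NW mature B-like cells, a ratio of 1.13 (0.979 to 1.30). In ABX the values were 448 and 525 CPM, a ratio of 0.852 (0.701 to 1.03), so that neither interval left 1. Without the Cd74-high cells the ratio was 1.18 in NW (1.02 to 1.37) and 1.23 in ABX (0.972 to 1.53), so that these cells turned the direction in ABX and set which side of 1 the NW interval lay on. Ebf1 was higher in precursors, by 2.18-fold in NW (1.94 to 2.45) and 1.77-fold in ABX (1.52 to 2.06), and by 2.29-fold (2.03 to 2.58) and 3.35-fold (2.85 to 3.92) without the Cd74-high cells. Plasma cell-like cells held 11 and 44 Ebf1 UMIs (6.69 and 19.8 CPM) and 4 and 12 Pax5 UMIs. Mature B-like cells were therefore 206-fold above plasma cell-like cells in Pax5 in NW (80.2 to 759) and 97.5-fold in ABX (55.7 to 189).

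Sox4 and Myb were higher in precursors than in mature B-like cells. Sox4 was detected in 50 of the 56 NW precursors and 21 of the 33 from ABX, and Myb in 53 and 26. Among those without high Cd74 the numbers were 49 of 52 and 20 of 23 for Sox4, and 51 and 22 for Myb. Sox4 gave 611 UMIs in NW precursors (1279 CPM) and 12 in NW mature B-like cells (8.35 CPM), a 153-fold difference (87.1 to 298). In ABX it was 62.3-fold (42.9 to 92.7), and without the Cd74-high cells 165-fold in NW (93.9 to 322) and 128-fold in ABX (88.4 to 191). Myb was 74.7-fold higher in precursors in NW (46.1 to 129) and 93-fold in ABX (58.5 to 155), and without those cells 81.7-fold (50.4 to 142) and 180-fold (113 to 301). Of all genes compared between these classes, 28.2% in NW and 22.1% in ABX were at least 1.5-fold higher in precursors, and 20.7% and 25.6% at least 1.5-fold lower. Leaving out the Cd74-high cells, 28.8% and 29.0% were higher and 21.1% and 28.4% lower. All of the 9 genes except Pax5 were past that fold, upward, in both libraries and with or without those cells, though in ABX Rag2 and Dntt had under 50 UMIs, the least asked of the genes compared. Since all genes of these cells bear on the classes, these folds are descriptions.

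**Figure D1:**
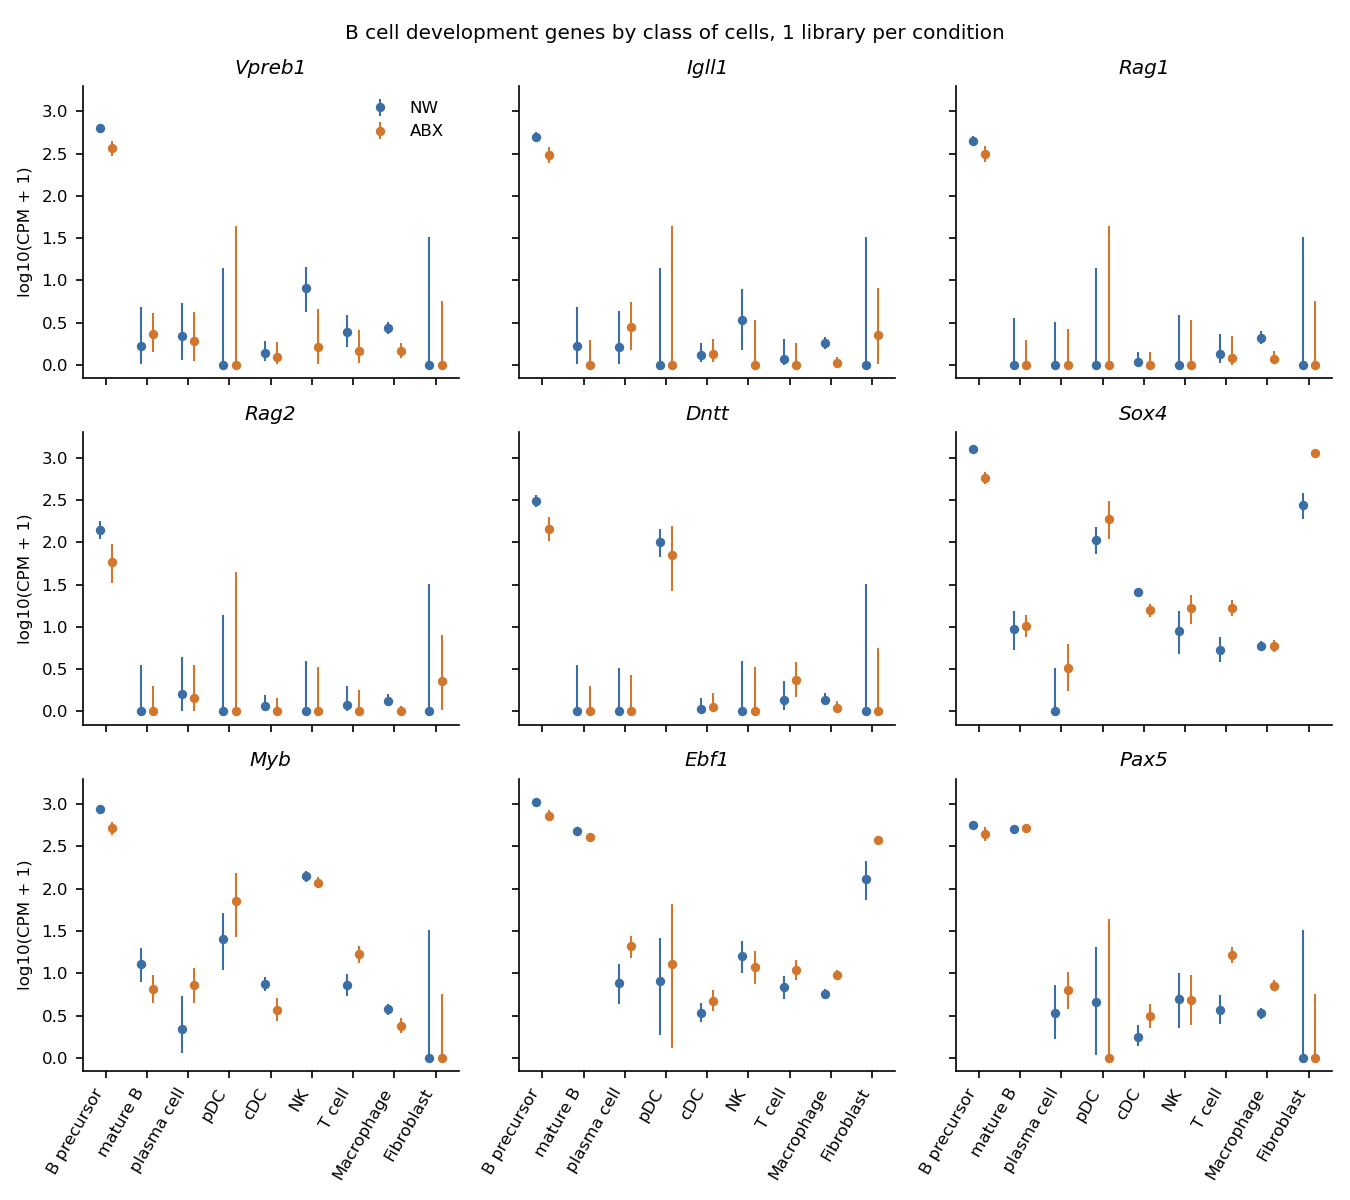
Level of each of the 9 genes, as log10(CPM + 1) of summed UMIs, in each class of cells (horizontal axis) and library (NW and ABX points), with bars for the 95% counting interval. Vpreb1, Igll1, Rag1 and Rag2 stand high in B precursor-like cells alone, Dntt also in pDC-like cells, and Ebf1 and Pax5 in mature B-like cells as well.

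UMIs of the surrogate light chain genes outside the precursor cluster were few and mostly single. Among the other cells, 77 NW and 42 ABX cells had 1 or 2 UMIs of Vpreb1 and Igll1 together, and 4 NW cells and no ABX cell had 3 or more. Those 4 cells (2 macrophage-like, 1 natural killer (NK)-like and 1 in an unnamed B cell cluster) held 58 UMIs. They also held other B lineage RNA, with 12 to 38 UMIs of Vpreb3 and 8 to 27 of Cd79a in each cell. The 2 macrophage-like cells held 47 of the 58 UMIs. They had 18 and 7 UMIs of Rag1, and 16 and 3 of the C1q genes, which are macrophage markers. What these 4 cells are was not tested. In macrophage-like cells, which should lack both genes, 0.715% of NW cells and 0.222% of ABX cells had any such UMI, at median depths of 5672 and 4083 UMIs. In mature B-like cells Vpreb1 alone had a UMI in 0.322% and 0.353% of cells, which is a narrower measure than the one for macrophage-like cells. The 5 ABX UMIs were in 3 cells of 1 cluster, 0.775% of its 387 ABX cells. Whether these UMIs are background was not tested.

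**Figure D2:**
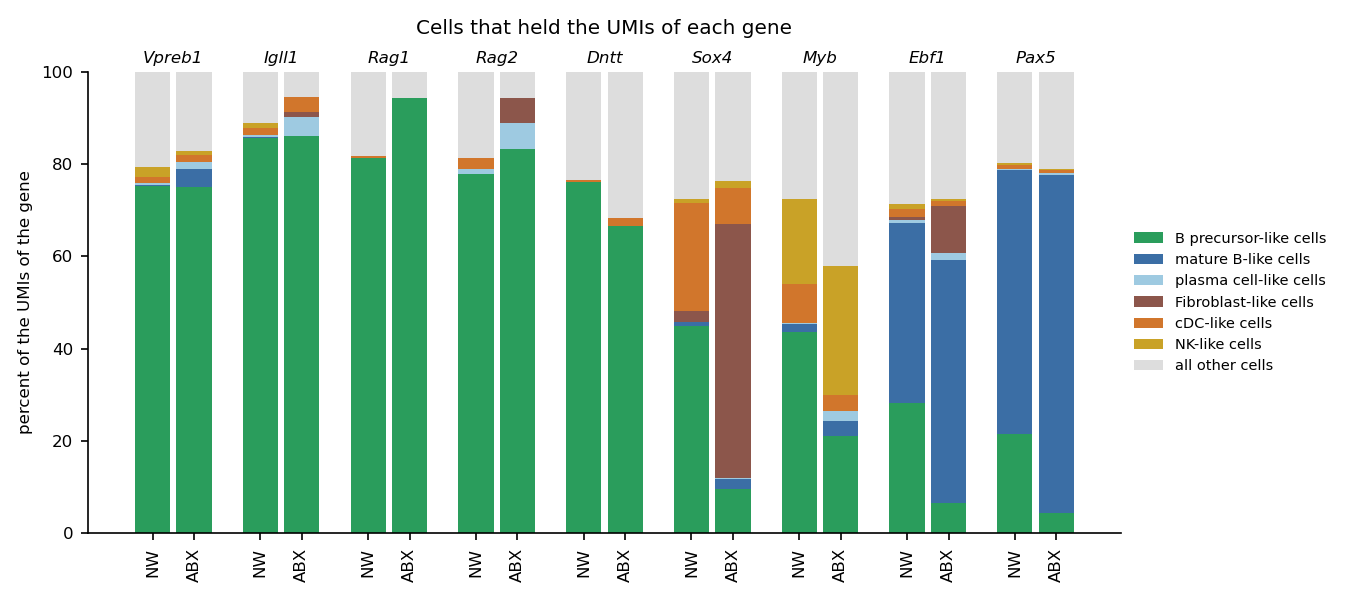
Percent of the UMIs of each gene that fell in each class, as stacked bars for NW and ABX. The precursor part of the bar was 75.2% and 75.0% for Vpreb1 but 45.0% and 9.47% for Sox4, and the mature B-like part was 57.2% and 73.2% for Pax5.

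Within the 75 precursors left after the Cd74-high cells were taken out, the genes came in combinations. Vpreb1 and Igll1 were detected together in 37 cells, Vpreb1 alone in 1 and Igll1 alone in 2. Rag1 and Rag2 were detected together in 26, and Rag2 without Rag1 in 3. All 17 cells with Dntt also had both Vpreb1 and Igll1, 15 of them had Rag1, and 16 had both Ebf1 and Pax5. A further 19 cells (13 NW, 6 ABX) had Rag1 or Rag2 with neither surrogate chain gene, 9 had a surrogate chain gene with neither Rag gene, and 16 had none of these 4. Sox4 and Myb were together in 68 of the 75 cells and Ebf1 and Pax5 in 57, while 10 cells had all 9 genes and 1 had none.

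These combinations differed in genes not used to form them. The 17 Dntt cells held the least Igkc, at 845.5 CPM, and no UMI of Il2ra (CD25), a surface gene of late pre-B cells. In them Ebf1 was at 2114 CPM. Vpreb1 was at 1992 CPM and Igll1 at 1626 CPM, but both were among the genes that formed the sets. The 23 cells with a surrogate chain gene but no Dntt had Igkc at 1443 CPM, Il2ra in 4 cells, and Mki67, a gene of dividing cells, in 15. The 19 cells with Rag1 or Rag2 alone had Igkc at 6922 CPM, Il2ra in 11 cells and Il7r (the interleukin 7 receptor) at 1457 CPM, with Mki67 in 5. Igkc was at 6969 CPM in the 13 NW and 6807 in the 6 ABX cells of this last set, against 834.6 and 898 CPM in the Dntt cells, so that both libraries gave the same order. The 16 cells with none of the 5 genes had Igkc at 4906 CPM, Il2ra in 5 cells and Mki67 in 10. These sets were drawn from detection in single cells, where a count of 0 can be a missed molecule, and their median depths ran from 3837 to 7090 UMIs.

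**Figure D3:**
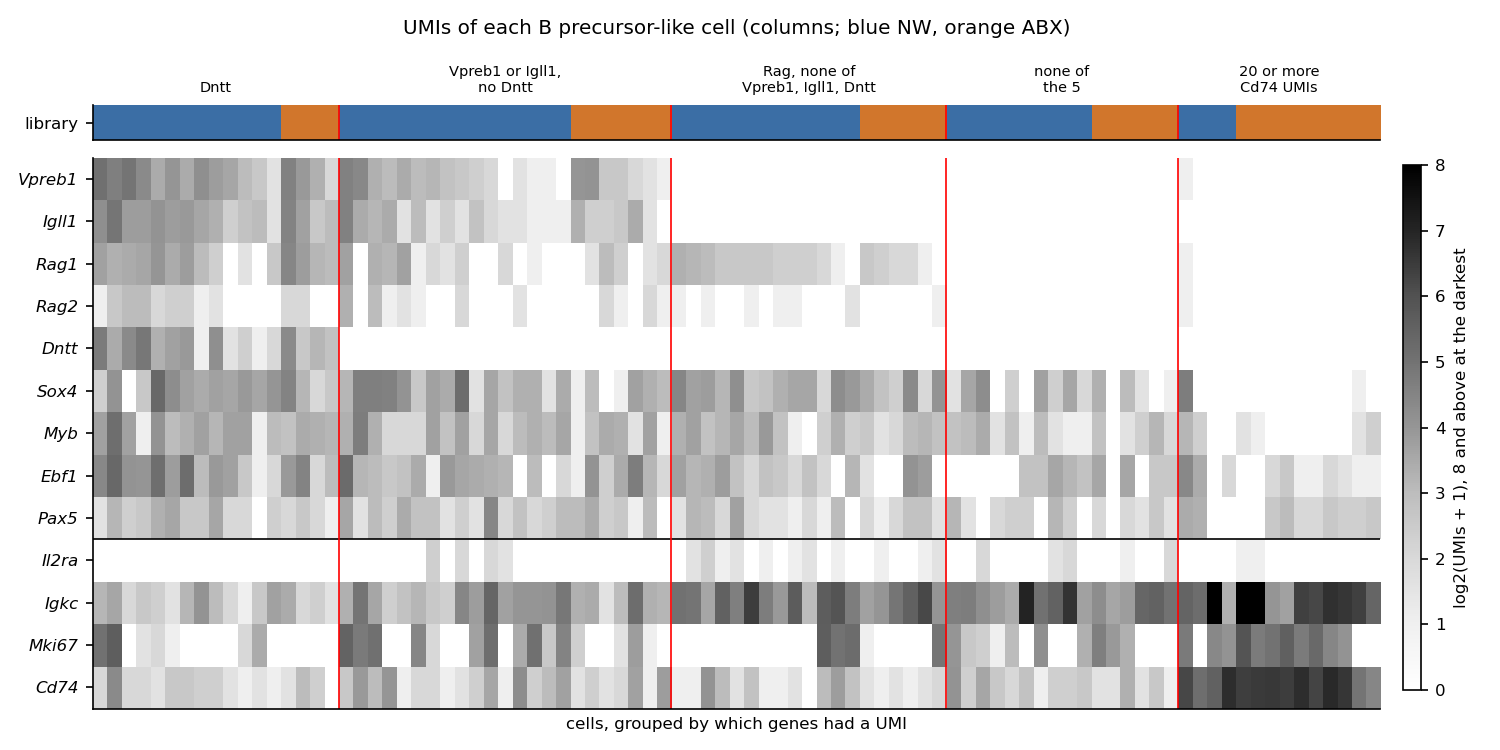
UMIs of the 9 genes and of Il2ra, Igkc, Mki67 and Cd74 (rows) in each of the 89 B precursor-like cells (columns), grouped by which genes had a UMI and then by library, with darker grey for a higher log2(UMIs + 1). The cells with at least 20 Cd74 UMIs are mostly blank for Vpreb1, Igll1, Rag1, Rag2 and Dntt, and Dntt lies within the cells that have Vpreb1 and Igll1.

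Levels spread widely from cell to cell. In the 52 NW precursors without high Cd74, Vpreb1 ran from 0 through a median of 1 to 33 UMIs, Igll1 from 0 through 1.5 to 29, and Rag1 from 0 through 3 to 15. In the 23 ABX precursors the medians were 0, 0 and 2, and the highest cells had 23, 22 and 21 UMIs. The cells of both libraries overlapped over nearly the whole range. Sox4 had a median of 11 UMIs (0 to 39) in NW and 6 (0 to 22) in ABX, Myb 7 (0 to 34) and 6 (0 to 12), Ebf1 7 (0 to 39) and 5 (0 to 25), and Pax5 4 (0 to 21) and 3 (0 to 10). Rag2 and Dntt had a median of 0 in both libraries, with highest cells of 9 and 3 UMIs for Rag2 and 28 and 19 for Dntt. These are raw counts, and the NW cells were deeper, with a median of 5853.5 UMIs against 4250. As CPM per cell the NW and ABX medians were 120 and 0 for Vpreb1, 148 and 0 for Igll1, and 561 and 409 for Rag1. They were 1525 and 987 for Sox4, 1028 and 1101 for Myb, 1294 and 1292 for Ebf1, and 667 and 724 for Pax5.

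At a finer clustering the precursors fell into a dividing and a non-dividing group. Without the Cd74-high cells these had 21 and 53 cells, with Mki67 at 2209 and 239 CPM. All 9 genes were at least 1.5-fold lower in the dividing group when both libraries were summed, where 22.5% of 2009 genes were. Their median log2 difference was −0.92, against −0.08 over all genes. The dividing cells were deeper, with a median of 9255 UMIs against 4753, and the part of depth in these values was not tested. Rag1 had the largest difference of the 9, with 899 CPM in non-dividing and 196 in dividing cells (log2 difference −2.20, −2.68 to −1.75), with a UMI in 39 of 53 and 8 of 21 cells. Dntt was at 536 and 147 CPM (−1.87, −2.44 to −1.34), with a UMI in 15 and 2 cells. Vpreb1 was at 982 and 518 CPM (−0.92, −1.24 to −0.61) and Igll1 at 736 and 469 CPM (−0.65, −0.99 to −0.31). The ABX dividing group had only 5 such cells and no Rag1 or Dntt UMI, so the comparison rested mainly on NW, where Rag1 was at 850 and 240 CPM. In NW alone Vpreb1 (−0.57, −0.91 to −0.23) and Igll1 (−0.39, −0.77 to −0.00525) fell short of 1.5-fold, and the other genes were past it. In ABX alone Sox4 was at −0.44 (−0.98 to 0.08). With the Cd74-high cells kept, which fell mostly in the dividing group, the median difference of the 9 was −1.60 and that of Rag1 −2.90.

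Next, the cells of the B lineage were counted in each condition. B precursor-like cells were 56 of 12474 NW cells (0.449%, exact 95% binomial interval 0.339% to 0.583%) and 33 of 12724 ABX cells (0.259%, 0.179% to 0.364%). The log10 ratio of ABX over NW was −0.238 (−0.425 to −0.0518). Without the Cd74-high cells it was 52 against 23 cells, 0.417% and 0.181%, with a log10 ratio of −0.363 (−0.576 to −0.150). Mature B-like cells went the other way, from 311 (2.49%) to 849 cells (6.67%), a log10 ratio of 0.428 (0.372 to 0.483), and plasma cell-like cells from 1.03% to 1.63% (0.199, 0.104 to 0.294). Precursors were 10.04% of B lineage cells in NW and 2.69% in ABX. Whether another pair of mice would give these shares cannot be read from 1 library each, and CD45 enrichment and tissue digestion can set shares.

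**Figure D4:**
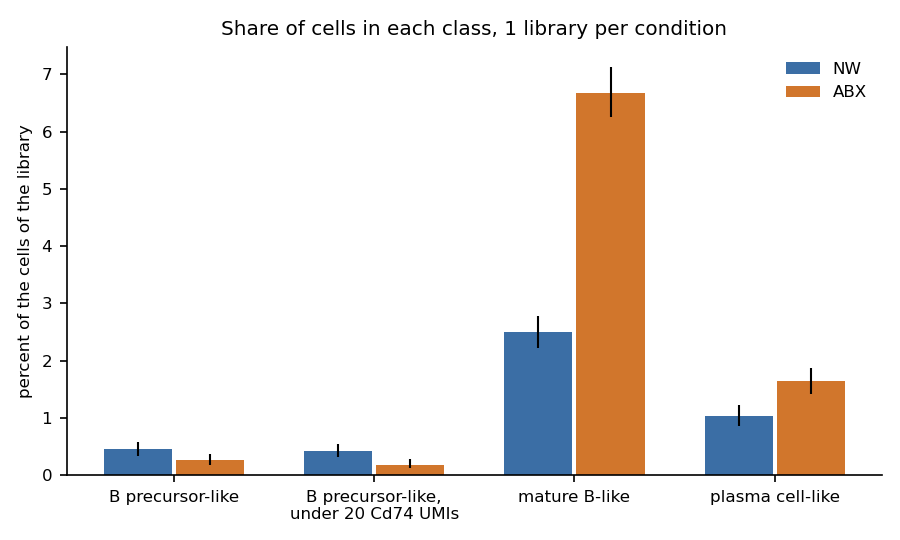
Percent of the cells of each library (bars) in the B precursor-like class, in the same class without cells of 20 or more Cd74 UMIs, and in the mature B-like and plasma cell-like classes in NW and ABX, with exact 95% binomial intervals. Precursors were 0.449% in NW and 0.259% in ABX, while mature B-like cells were 2.49% and 6.67%.

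Over all cells, which needs no cluster, the genes of early stages were lower in ABX and the genes kept by mature B cells were higher. Vpreb1 gave 403 UMIs in NW and 128 in ABX (5.36 and 2.11 CPM, log2 ratio −1.35, −1.65 to −1.06). Igll1 gave 278 and 93 (−1.27), Rag1 263 and 88 (−1.27), Rag2 86 and 18 (−1.95) and Dntt 192 and 57 (−1.44). Ebf1 gave 1780 and 2945 UMIs (1.03, 0.95 to 1.12) and Pax5 1262 and 2697 (1.40, 1.31 to 1.501). Sox4 was at 1358 and 1616 UMIs (0.56) and Myb at 967 and 651 (−0.26). Of the 9 genes, 5 were at least 1.5-fold lower in ABX, where 2.54% of all 14505 genes with enough UMIs were, and 2 were at least 1.5-fold higher, where 13.3% were. The median log2 ratio of the 9 was −1.27 against 0.07 for all genes. With every cell thinned to 1000 UMIs the log2 ratios were −1.12 for Vpreb1, −1.30 for Igll1, −1.25 for Rag1, −1.71 for Rag2 and −1.07 for Dntt.

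Within the precursors the levels in CPM depended on the 14 Cd74-high cells. With them, Sox4 went from 1279 to 580 CPM (log2 −1.14, −1.41 to −0.88), Rag2 from 140 to 56.9 CPM (−1.30) and Dntt from 306 to 144 CPM (−1.08). Vpreb1 was at −0.80, Myb at −0.77, Igll1 at −0.72, Ebf1 at −0.52, Rag1 at −0.51 and Pax5 at −0.34. In all, 6 of the 9 genes were at least 1.5-fold lower in ABX, where 17% of 2860 genes were, and none was higher, where 7.69% were. Without these cells none of the 9 was past 1.5-fold either way, where 13.5% of 2142 genes were lower and 6.82% higher. Vpreb1 was then at 711 CPM in NW and 755 in ABX (0.09, −0.26 to 0.42), Igll1 at 560 and 629 (0.17), Rag1 at 502 and 653 (0.38, −0.00405 to 0.75), and Rag2 at 155 and 118 (−0.40, −1.31 to 0.43). Dntt was at −0.20, Sox4 at −0.21, Myb at 0.06 and Pax5 at 0.12, each with an interval that held 0. Ebf1 was the exception, at 1104 and 1384 CPM (0.33, 0.07 to 0.58). In these cells the summed NK markers were at 14.1 CPM in NW and 385 in ABX and the macrophage markers at 601 and 362 CPM, and their part in the result was not tested.

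**Figure D5:**
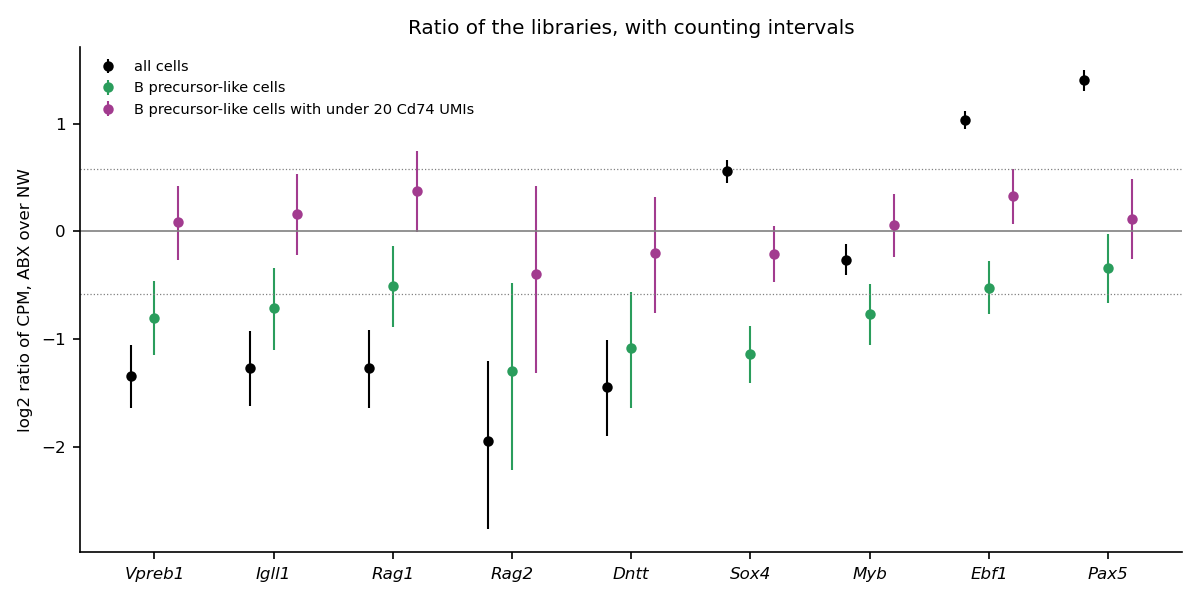
Log2 ratio of ABX over NW for each of the 9 genes over all cells, in B precursor-like cells, and in those with under 20 Cd74 UMIs, with 95% counting intervals and dotted lines at 1.5-fold. Vpreb1, Igll1, Rag1, Rag2 and Dntt lie below 0 over all cells, and in precursors without high Cd74 every interval but that of Ebf1 holds 0.

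In mature B-like cells Pax5 and Ebf1 differed little between the conditions. Pax5 gave 722 UMIs in NW and 1974 in ABX, at 502 and 525 CPM (log2 0.06, −0.06 to 0.19). Ebf1 was at 483 and 413 CPM (−0.23, −0.36 to −0.09). Neither was past 1.5-fold, where 4.02% of 8094 genes were higher in ABX and 4.68% lower. The 3 clusters of mature B-like cells did not share one direction for Ebf1. It went from 435 to 327 CPM in the cluster with the least Ighd, the IgD heavy chain gene, from 472 to 576 CPM in the second, and from 612 to 573 CPM in the third. Pax5 was at 381 and 438 CPM in the first of these and at 747 and 758 CPM in the second, and went from 621 to 575 CPM in the third. Erythroid genes gave 3564 UMIs in ABX mature B-like cells and none in NW, and their part in these values was not tested.

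Sox4, Myb and Ebf1 were not limited to the B lineage, so the name of the group does not describe where all of their RNA lay. In fibroblast-like cells Sox4 had 32 UMIs in 9 NW cells (273 CPM) and 891 in 94 ABX cells (1122 CPM). This was below the 1279 CPM of NW precursors and above the 580 CPM of ABX precursors, or the 1195 CPM of the ABX precursors without high Cd74. The greater number of these non-immune cells in ABX moved with the higher Sox4 over all cells, and their part in it was not tested. The dendritic cell cluster led by Fscn1, Ccl22 and Ccr7 had 255 Sox4 UMIs in NW (172 CPM) and 62 in ABX (109 CPM). Over all conventional dendritic cell (cDC)-like cells Sox4 went from 24.8 to 14.7 CPM (log2 −0.76, −1.07 to −0.45), and in T cell-like cells from 4.36 to 15.8 CPM (1.86, 1.18 to 2.59). Different clusters made up the T cell-like class in each library. A cluster led by Foxp3, Ctla4 and Ikzf2 had 419 NW and 183 ABX cells, and one led by Nsg2, Lef1 and Dapl1 had 72 and 145. Sox4 was at 2.32 and 15.7 CPM in the first of these and at 21.0 and 33.0 CPM in the second.

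Myb had its next level after precursors in NK-like cells, at 140 CPM in NW (178 UMIs) and 117 in ABX (182 UMIs), a log2 ratio of −0.26 (−0.56 to 0.05). Its UMIs in T cell-like cells, whose clusters differed in number as above, were 35 and 72 (1.32, 0.72 to 1.94), with 4.64 and 5.23 CPM in the cluster led by Foxp3 and 18.7 and 39.7 CPM in that led by Nsg2. In macrophage-like cells they were 98 and 31 (−0.995, −1.63 to −0.40), and in cDC-like cells 82 and 23 (−1.24, −1.98 to −0.56). Macrophage-like cells held Myb at only 2.77 and 1.39 CPM, with a UMI in 1.22% and 0.505% of cells.

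Ebf1, which also works in the fat cell lineage, was at 128 CPM in NW and 374 in ABX fibroblast-like cells (15 and 297 UMIs). A cluster led by Fabp4, Timp3 and Mgll held 174 and 309 Ebf1 UMIs, at 71.4 and 100 CPM (0.49, 0.22 to 0.77). That cluster had all 6 endothelial markers above the other cells, and was left unnamed because of its macrophage markers. Pax5 stayed closest to the B lineage. Of its 205 NW and 420 ABX UMIs outside B lineage clusters, 69.8% and 72.6% were in the 70 and 136 cells that also had at least 3 UMIs of Cd79a and Cd79b, the B cell receptor's signalling chains. For Ebf1 these cells held 30.1% and 21.2%, and for Sox4 11.0% and 1.69%.

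The genes most like each of the 9 were taken from the Pearson r of log2(CPM + 1) over 40 clusters of both libraries, which share their libraries and differ in depth. Rag1 and Rag2 were most like each other (r = 0.94), and Igll1 (0.93) and Vpreb1 (0.89) were each most like Rag2. Outside the 9, Drc7 was nearest to Vpreb1, Rag1 and Rag2 (0.78 to 0.81), Epb41l4b to Igll1 (0.78) and Slco4a1 to Dntt (0.77). Among the genes near to Pax5 were Fcmr and Ms4a1 (both 0.92), and Ebf1 was nearest to Cd55 and Cd79a (both 0.85). Sox4 was nearest to Mid1 (0.74), and Myb to Atp1b1 (0.75) and Slamf6 (0.74), with Eomes, a factor of NK cells, at 0.68.

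A list of 47 other genes of B cell development placed the 9 in their pathway. Of the 39 with at least 50 UMIs in each library, 12 were at least 1.5-fold higher in precursors than in mature B-like cells in both libraries and 11 lower in both, and 12 and 10 without the Cd74-high cells. The share of all genes past this fold in both libraries was not counted, so nothing is concluded from these counts. In single libraries 14 of 39 were higher and 13 lower in NW, and 14 and 14 of 40 in ABX, to be read against the 20.7% to 28.2% of all genes given above. Without the Cd74-high cells they were 14 and 13 of 39 in NW and 12 and 13 of 40 in ABX, against 21.1% to 29.0%. Vpreb3, a partner of the nascent light chain, was higher by 4.48 (log2) in NW and 3.65 in ABX, and Il7r by 5.25 and 5.07. Of the 14 transcription factors listed, 6 had a log2 interval above 0 in both libraries and 2 had one below 0 in both. The share of all genes that met this interval rule was not counted. Nothing is therefore concluded from this count, or from the like count of end-joining genes below. Lef1 was higher by 5.29 and 4.64, Bach2 by 2.07 and 2.05, and Tcf3 by 1.76 and 1.19. Ikzf3 was lower, at −1.03 and −0.56, and so was Bcl11a, at −0.56 and −1.54. End-joining genes close the breaks made by Rag1 and Rag2. Of the 8 recombination and end-joining genes listed, 2 had an interval above 0 in both libraries and 0 had one below it in both. These 2 were Lig4, higher by 4.37 and 3.13, and Xrcc6, by 3.70 and 3.11. Polm was at 1.61 and 0.69, Xrcc5 at 0.59 and −0.29, Dclre1c at 0.35 and −1.40, and Prkdc at −0.47 and −3.06. In ABX precursors Xrcc5 rested on 5 UMIs, Dclre1c on 2 (−4.47 to 0.51) and Prkdc on 1 (−8.38 to −0.56). Xrcc4 and Poll had under 50 UMIs in each library. When the Cd74-high cells were left out, Vpreb3 was at 4.59 and 4.53, Il7r at 5.39 and 6.08, Lef1 at 5.43 and 5.69, Bach2 at 2.20 and 2.76, and Tcf3 at 1.85 and 1.85. Lower in precursors were Ms4a1 (−2.94 and −1.26), Cd2 (−2.86 and −2.07), Ighd (−2.68 and −1.68) and Il2rg (−1.56 and −1.59). Of the Ms4a1 UMIs in precursors, 62 of 103 in NW and 197 of 199 in ABX were in Cd74-high cells, and without these Ms4a1 was at −4.10 and −6.85, the last from 2 UMIs. Between the conditions, 34 of the 47 had enough UMIs in precursors, of which 5 (14.7%) were at least 1.5-fold higher and 10 (29.4%) lower in ABX, where 7.69% and 17% of all genes were. Their median log2 ratio was −0.21, against −0.12 over all genes. Without the Cd74-high cells 4 of 31 (12.9%) were higher and 2 (6.45%) lower, where 6.82% and 13.5% of all genes were, with medians of 0.00245 and −0.06.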

How the data were processed

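CD45+ cells of visceral adipose tissue were captured and sequenced with the BD Rhapsody whole-transcriptome assay, as 1 NW and 1 ABX library. The authors made the deposited tables with the BD pipeline against the mouse genome (mm10 per the labels), and the values are raw UMI counts per cell and gene, with 10 antibody columns. The submitters' processing notes name R 3.6.0 and Seurat 3.0.1. Here the counts were filtered as in the report and clustered with Seurat 5.3.0 in R 4.3.3 (2000 variable genes without the 9 genes, 30 principal components, 8 antibodies joined by weighted neighbours, resolution 0.6), and B lineage cells were clustered again. Levels were summed UMIs scaled to CPM, ratios had exact Poisson intervals, and shares Clopper-Pearson intervals. These cover counting error only. "At least 1.5-fold" was read over genes with at least 50 UMIs in both libraries together. Tested on simulated data with 200 genes changed by a log2 of 1, the interval left 0 on the right side for 82% of them at the depth of the B precursor-like comparison and 92% at that of the mature B-like one. The simulated counts were Poisson sums with no spread between cells. They therefore cannot show how the intervals do where a few cells hold most UMIs of a gene. Coordinates are from GENCODE vM21 and promoters from RefSeq. The genes named were all 9, those of the fixed lists, the genes nearest to each of the 9 by correlation and the leading genes of clusters, and the genes, lists and rules were chosen with earlier results of these data known. Doublets were not removed. Samples were grouped by their labels. The alternatives were other filters, cluster resolutions, definitions of a precursor, scalings and the 9 genes kept among the variable genes. 1 gene is not reported here.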

Additional observations from a re-analysis of the deposited data

Results flagged for a closer look

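The share of cells moved in opposite directions within the B lineage. The log10 ratio of ABX over NW was −0.238 for B precursor-like cells, 0.428 for mature B-like cells and 0.199 for plasma cell-like cells, and the difference between them was not tested, since each condition was 1 library.

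For 3 of the genes the ratio of ABX over NW had opposite signs in different classes, with each interval off 0, and these differences were not tested either. The log2 ratio of Sox4 was 1.86 in T cell-like and −0.76 in cDC-like cells. That of Myb was 1.32 in T cell-like cells, −0.995 in macrophage-like cells and −1.24 in cDC-like cells. That of Ebf1 was −0.23 in mature B-like cells, 0.33 in B precursor-like cells without high Cd74, 1.56 in plasma cell-like cells, 0.85 in macrophage-like cells and 0.77 in T cell-like cells. Some T cell-like cells, 9 in NW and 22 in ABX, also had at least 3 UMIs of Cd79a and Cd79b. They held 20 of the 32 NW and 26 of the 45 ABX Ebf1 UMIs of that class. In macrophage-like cells such cells held 52 of 168 and 81 of 191. Their part in these ratios was not tested. Fewer than 100 UMIs per library stood behind the T cell-like values, and behind those of Myb in macrophage-like and cDC-like cells. The Ebf1 value in plasma cell-like cells rested on 11 NW and 44 ABX UMIs.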

How the results depend on the processing

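Of 36 alternative values of the main results, 31 kept their direction within the spread allowed and 5 moved, and of 186 values for single genes, 137 kept, 40 moved and 9 reversed. The B precursor share stayed lower in ABX under each alternative, with a log10 ratio from −0.185 (at most 10% mitochondrial UMIs, interval −0.392 to 0.0216) down to −0.471 when a precursor was any cell with at least 3 UMIs of Vpreb1 and Igll1, and −0.432 when it was any cell with a Rag1 or Rag2 UMI. The number of the 9 genes at least 1.5-fold lower in ABX precursors was 6, and became 3 with the mean of per-cell CPM, 1 with the 9 genes kept among the variable genes and 0 without cells of at least 20 Cd74 UMIs, an alternative chosen after seeing the data. Without those cells the log2 ratios in precursors turned to 0.086 for Vpreb1, 0.17 for Igll1, 0.38 for Rag1, 0.0599 for Myb, 0.33 for Ebf1 and 0.12 for Pax5, and with the 9 genes kept they turned to 0.20 for Rag1, 0.14 for Ebf1 and 0.0192 for Pax5. The planned removal of called doublets was not run, because the caller marked 1 ABX cell (0.00786%) against 2.76% in NW, and the NW threshold was used for both instead. No paired analysis was possible because each condition is 1 library. The 33 ABX precursors limit what a ratio within them can show.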

Other observations

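Kit, the receptor of stem cell factor on early progenitors, gave 25 UMIs in NW precursors and none in ABX precursors. Erg, a transcription factor of progenitors, gave 33 and 9. These are raw sums over 56 NW and 33 ABX cells. The 52 and 23 cells without high Cd74 gave the same counts. Since the sums are not scaled to the number or depth of the cells, they give no ratio between the libraries. By antibody, B precursor-like cells had medians of 56.5 (NW) and 52 (ABX) counts for CD44, against 97 and 98 in mature B-like cells, and 6 and 5 counts for CD25, against 6 and 5.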
